A study of Mus musculus with 2 samples.

Results

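Focal adhesions are the sites where integrins, the receptors that hold a cell to its matrix, are joined inside the cell to bundles of actin. Talin, kindlin and vinculin form the link, LIM-domain proteins such as zyxin sit at the adhesion and along the bundle, and α-actinin, filamin, caldesmon, tropomyosin and non-muscle myosin build, brace and tension the bundle. Fibroblasts that become contractile myofibroblasts during lung fibrosis are known for thick bundles of this kind. The 51 genes described here encode focal adhesion, LIM-domain, actin crosslinking and actomyosin proteins. They were taken by gene symbol from the 16040 genes of the deposited table, as a list drawn up with earlier results of these data known. All 51 were present in the table, and all had at least 10 counts over both libraries, the minimum for testing.

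The samples were lung fibroblasts of Col1a2-EGFP reporter mice, in which a promoter of the type 1 collagen gene Col1a2 drives a green fluorescent protein. Mice were given saline or bleomycin into the trachea, and lungs were taken on day 14. Bleomycin breaks DNA and is the usual agent for modelling lung scarring in rodents. Digested lung was sorted for cells that carried the reporter and lacked lineage markers, and tags near the 3′ end of transcripts were counted by serial analysis of gene expression. Each group is 1 library made from the cells of 3 mice, so no comparison below has a replicate check. The sources used here do not give age, sex or the lineage markers.

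The saline library held 1080798 counts and the bleomycin library 1099840 counts. Levels are given as counts, or as CPM, the count scaled to library size by the trimmed mean of M values (TMM), on which 1 saline count is worth 0.912 and 1 bleomycin count 0.922. The sort was checked on marker lists. Of 10 fibroblast markers all 10 were detected in both libraries, with summed levels of 14451 CPM for saline and 22037 CPM for bleomycin, and they ran in both directions. Col1a1, Col1a2 and Thy1 were called higher by the rule given below (Col1a2, whose promoter drives the reporter, went from 1636 to 5613 counts), while Dcn, decorin, went from 4861 to 1606 counts and Tcf21 from 338 to 93, both called lower, and Pdgfra was lower by the read test at a ratio of 0.642. Endothelial markers summed to 561 CPM for saline and 36.0 CPM for bleomycin over 14 genes, of which 1 and 3 were at 0. Epithelial markers summed to 210 and 35.1 CPM over 10 genes, 2 and 4 of them at 0, and pericyte markers to 267 and 137 CPM over 9 genes, none at 0. Leukocyte and platelet markers summed to 20.1 and 8.30 CPM over 8 genes, with 3 at 0 in each library, and mesothelial markers to 149 and 129 CPM over 5 genes, with 1 at 0 in each. Single genes made up much of 2 of these sums. Upk1b held 154 of the 163 saline and 131 of the 140 bleomycin mesothelial counts. Sftpc held 154 of the 230 saline and 7 of the 38 bleomycin epithelial counts. Smooth muscle markers summed to 2055 and 2655 CPM over 10 genes, none at 0, and ran in both directions, from a bleomycin-to-saline ratio of 0.193 to one of 3.42; 3 of the 10 (Lmod1, Smtn and Synpo2) are also among the 51 genes. In such sorted bulk samples, fewer cells of a type and less RNA per cell cannot be told apart.

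In the bleomycin library the adhesion and actin bundle genes differed gene by gene and not as a block. Actn1, the α-actinin that crosslinks actin bundles, and Cald1, caldesmon, which binds the thin filament, were more than 2-fold higher, as were Tes, Fhl2, Fhl3 and Pdlim4, which carry LIM domains, and Myh9, a non-muscle myosin heavy chain. Tns1, Lims2 and Synpo2, which encode tensin 1, Pinch 2 and synaptopodin 2, were more than 2-fold lower. A gene was called when its count passed an exact binomial test on the reads (Benjamini-Hochberg adjusted p under 0.05 over all 9369 genes tested) and its ratio, with 0.5 added to each count, was at least 2 in either direction. This test compares the 2 libraries and not the conditions. By that rule 7 of 51 genes (13.7%) were higher, against 8.08% of all tested genes, and 3 (5.88%) were lower, against 8.52%. Called genes in either direction were 19.6% of the 51 and 16.6% of all tested genes, so the shares lie near the background. The median log2 ratio of the 51 was 0.06, beside 0.02 for all tested genes, and 26 had a ratio above 1 and 25 below. The interquartile width of the log2 ratios was 0.95, against 1.12 for all tested genes.

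Many of these genes have high counts, and a further 11 passed the read test at ratios under the 2-fold limit. At any ratio, 21 of 51 genes (41.2%) were past the read test, against 27.9% of all tested genes. Of these, 10 of 51 were higher (19.6%, against 13.8%) and 11 lower (21.6%, against 14.1%). The sum of both libraries had a median of 211 counts for the 51 and 52.0 for all tested genes, and the share of all tested genes past the read test went from 14.9% at sums of 10 to 49 counts to 61.2% at 200 or more. Among genes with at least 200 counts, 53.8% of the 26 genes of the set passed it, against 61.2% of all 1594 such genes. Ranges in brackets below are exact 95% intervals of the ratio, which cover counting error only.

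**Figure D1:**
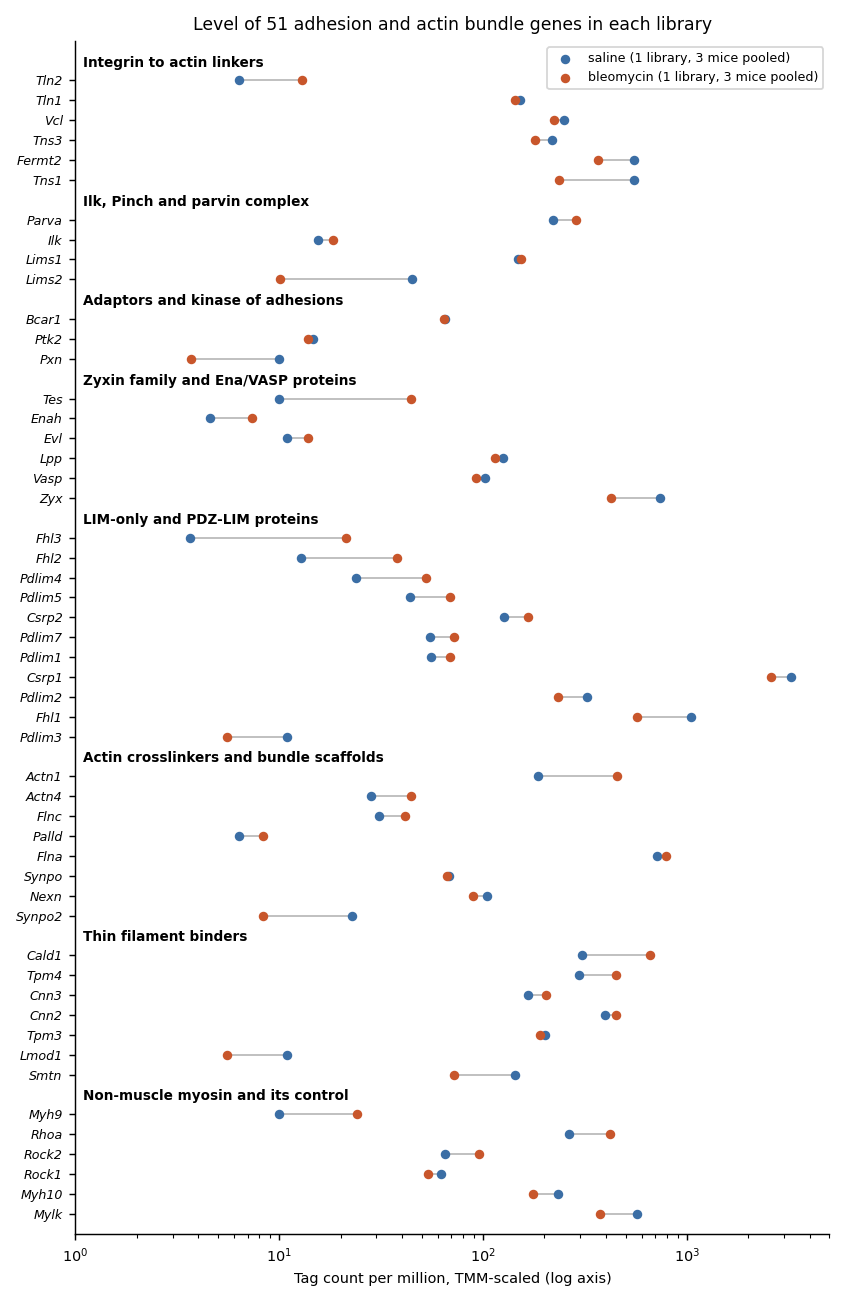
Level of each of the 51 genes in the saline (blue) and bleomycin (orange) library, in CPM on a log axis, to be compared within a gene, grouped by role and ordered by ratio within a group. Points of 1 gene are joined by a line; levels run from Csrp1, at 3241 and 2582 CPM, to genes under 10 CPM in both libraries such as Enah and Palld.

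Of the 6 genes that link integrins to actin, 1 was called, and it was lower. Tns1, tensin 1, which ties integrin tails to actin, fell from 601 counts with saline to 256 with bleomycin, a ratio of 0.431 (0.371 to 0.499). Fermt2, kindlin 2, which helps talin activate integrins, had 600 and 396 counts, a ratio of 0.667 (0.586 to 0.759). Fermt2 passed the read test but not the 2-fold limit. The intervals of talin 1 and vinculin held 1. Tln1, talin 1, had 167 and 155 counts (ratio 0.939, 0.749 to 1.18), and Vcl, vinculin, which is recruited to stretched talin, had 273 and 241 (0.893, 0.748 to 1.07). Tns3, tensin 3, had 238 and 194 counts. Tln2, talin 2, had 7 and 14 counts, too few for its ratio of 2.02 (0.764 to 5.92) to pass the test.

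The complex of integrin-linked kinase, Pinch and parvin, which anchors actin to the integrin β tail, showed a single called gene. Lims2, which encodes Pinch 2, fell from 49 to 11 counts, a ratio of 0.227 (0.106 to 0.443). Its paralog Lims1, Pinch 1, had 162 and 167 counts, a ratio of 1.04 (0.835 to 1.30). Parva, α-parvin, had 242 and 310 counts and was higher by the read test at a ratio of 1.30 (1.09 to 1.54). Ilk, the pseudokinase at the centre of the complex, had 17 and 20 counts. Endothelial markers fell in the same library, all 11 tested ones being called lower. So were 4 of 8 tested pericyte markers and 2 of 5 tested epithelial markers, beside 8.52% of all tested genes. The part of these cell types in the Lims2 and Tns1 values was not tested. None of the adaptors and kinase that signal from adhesions passed the test. Bcar1, the scaffold p130Cas, had 71 and 70 counts, and Ptk2, focal adhesion kinase, had 16 and 15. Pxn, paxillin, had 11 and 4 counts, and its ratio of 0.368 (0.0854 to 1.24) did not pass the test.

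Zyx was lower and Tes higher, while Lpp, a relative of Zyx, did not pass the test. Zyx, zyxin, a LIM protein that moves to strained actin bundles, had 805 and 462 counts, a ratio of 0.580 (0.517 to 0.652) that was lower by the read test and under the 2-fold limit. Tes, testin, which binds zyxin and α-actinin, rose from 11 to 48 counts, a ratio of 4.41 (2.26 to 9.42). Lpp, the lipoma preferred partner, had 137 and 124 counts, a ratio of 0.915 (0.712 to 1.18). The Ena/VASP proteins, which speed the growth of actin filaments and are brought to adhesions by zyxin, did not pass the test. Vasp had 112 and 100 counts, Evl 12 and 15, and Enah 5 and 8.

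Of the 11 LIM-only and PDZ-LIM genes, 3 were called higher, beside 8.08% of all tested genes. A further 3 were lower by the read test, beside 14.1% of all tested genes. The class was not tested against these shares. Csrp1, a LIM-only protein that binds α-actinin and zyxin, had 3554 and 2799 counts, the most of any of the 51 genes, and a ratio of 0.796 (0.758 to 0.837). Fhl1, a LIM-only protein best known in muscle, had 1142 and 616 counts, a ratio of 0.546 (0.494 to 0.602). Pdlim2 had 353 and 254 counts, a ratio of 0.728 (0.617 to 0.857). All 3 were lower by the read test and under the 2-fold limit. Fhl2, a LIM-only coregulator found at adhesions and in the nucleus, rose from 14 to 41 counts, a ratio of 2.96 (1.58 to 5.88). Fhl3 rose from 4 to 23 counts, a ratio of 5.82 (1.99 to 23.1), and Pdlim4, a PDZ-LIM protein that binds α-actinin, rose from 26 to 57, a ratio of 2.22 (1.37 to 3.67). With Bonferroni adjustment Fhl2, Fhl3 and Pdlim4 were no longer called. The other 5 genes of the class did not pass the test. Csrp2 (138 and 180 counts), Pdlim1 (61 and 75), Pdlim5 (48 and 75) and Pdlim7 (60 and 78) had ratios from 1.24 to 1.58, and Pdlim3 had 12 and 6 counts.

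The Fhl result rests on tags that tell the 3 relatives apart, so the tag expected for each is shown. As background, kits of this type anchor tags at NlaIII sites, which read CATG. The sources used here do not give the tags that were counted. The sequences below are therefore 27 bases from the last CATG of the GENCODE M21 transcript (GRCm38) that carries the record named in the table, with the anchor site in capitals.
Fhl1: CATGacaaaaactctagagccgcagct
Fhl2: CATGtgttatgaacttgaatgtatttt
Fhl3: CATGttgccctgcaacaggaagcagga
Such a tag could be derived for 46 of the 51 genes, and for 45 of them no other gene's transcript had the same last tag. None was derived for Myh9, Myh10, Actn4, Pdlim3 and Pdlim5, so whether their tags are shared was not tested. The exception was Tpm3, whose tag is shared with its copy Tpm3-rs7, so the Tpm3 count is uncertain.

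Among crosslinkers and scaffolds of the bundle, Actn1 rose and Synpo2 fell. Actn1 had 204 and 492 counts, a ratio of 2.44 (2.07 to 2.89). Its paralog Actn4 had 31 and 48 counts, a ratio of 1.57 (0.977 to 2.54) that did not pass the test. Flna, filamin A, which crosslinks actin into networks and binds integrins, had 778 and 860 counts, a ratio of 1.12 (1.01 to 1.23), not past the test after adjustment. Synpo2, synaptopodin 2, an actin bundling protein of smooth muscle, had 25 and 9 counts, a ratio of 0.364 (0.150 to 0.806). It was not called when no count minimum was set or with Bonferroni adjustment. Synpo, with 75 and 72 counts, Nexn, nexilin, with 114 and 97, Flnc, filamin C, with 34 and 45, and Palld, palladin, with 7 and 9, were not past the test.

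Proteins that bind along the thin filament also split. Cald1, which restrains myosin on actin, had 336 and 718 counts, a ratio of 2.16 (1.90 to 2.47). Tpm4, a tropomyosin of non-muscle bundles, had 323 and 486 counts and was higher by the read test at a ratio of 1.52 (1.32 to 1.76). Cnn2 and Cnn3, the calponins of non-muscle cells, had 434 and 486 counts and 183 and 220 counts, with ratios of 1.13 (0.993 to 1.29) and 1.22 (0.995 to 1.49). Tpm3 had 222 and 206 counts. Smtn, smoothelin, a marker of contractile smooth muscle, had 158 and 78 counts, a ratio of 0.499 (0.376 to 0.659). It was past the read test as lower and sat on the 2-fold limit, which it met with library scaling by total counts or by median-of-ratios size factors. Lmod1, leiomodin, which nucleates actin in smooth muscle, had 12 and 6 counts. Smtn, Synpo2 and Lmod1 belong to the smooth muscle marker list. Of its 10 genes, 4 were called lower and 1 higher, beside 8.52% and 8.08% of all tested genes. By the read test at any ratio, 5 of that list were lower and 3 higher, beside 14.1% and 13.8%. The list was not tested against these shares. The 5 lower were Hhip (267 and 51 counts, ratio 0.193), Cnn1 (17 and 4, 0.238), Synpo2, Myh11 (237 and 106, 0.452) and Smtn. The 3 higher were Des (169 and 571 counts, ratio 3.42), Acta2 (328 and 609, 1.88) and Tagln (814 and 1220, 1.52). The part of smooth muscle cells in these values was not tested.

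Myosin genes and their control moved unevenly. Myh9, the heavy chain of non-muscle myosin IIA, had 11 and 26 counts, a ratio of 2.39 (1.14 to 5.36). Its adjusted p in the exact test was 0.0483, and the call was lost with either other library scaling, with a prior count of 5, with no count minimum or with Bonferroni adjustment. Myh10, the heavy chain of myosin IIB, had 256 and 190 counts and was lower by the read test at a ratio of 0.751 (0.619 to 0.909). Mylk, myosin light chain kinase, which switches on these myosins, had 627 and 404 counts, a ratio of 0.652 (0.574 to 0.740), also lower by the read test. Rhoa, the small GTPase that signals for contraction, had 290 and 455 counts and was higher by that test at 1.59 (1.37 to 1.84). Of its effector kinases, Rock2 had 71 and 103 counts (1.47, 1.07 to 2.01) and Rock1 had 68 and 58 (0.863, 0.597 to 1.24), and neither passed the test after adjustment.

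**Figure D2:**
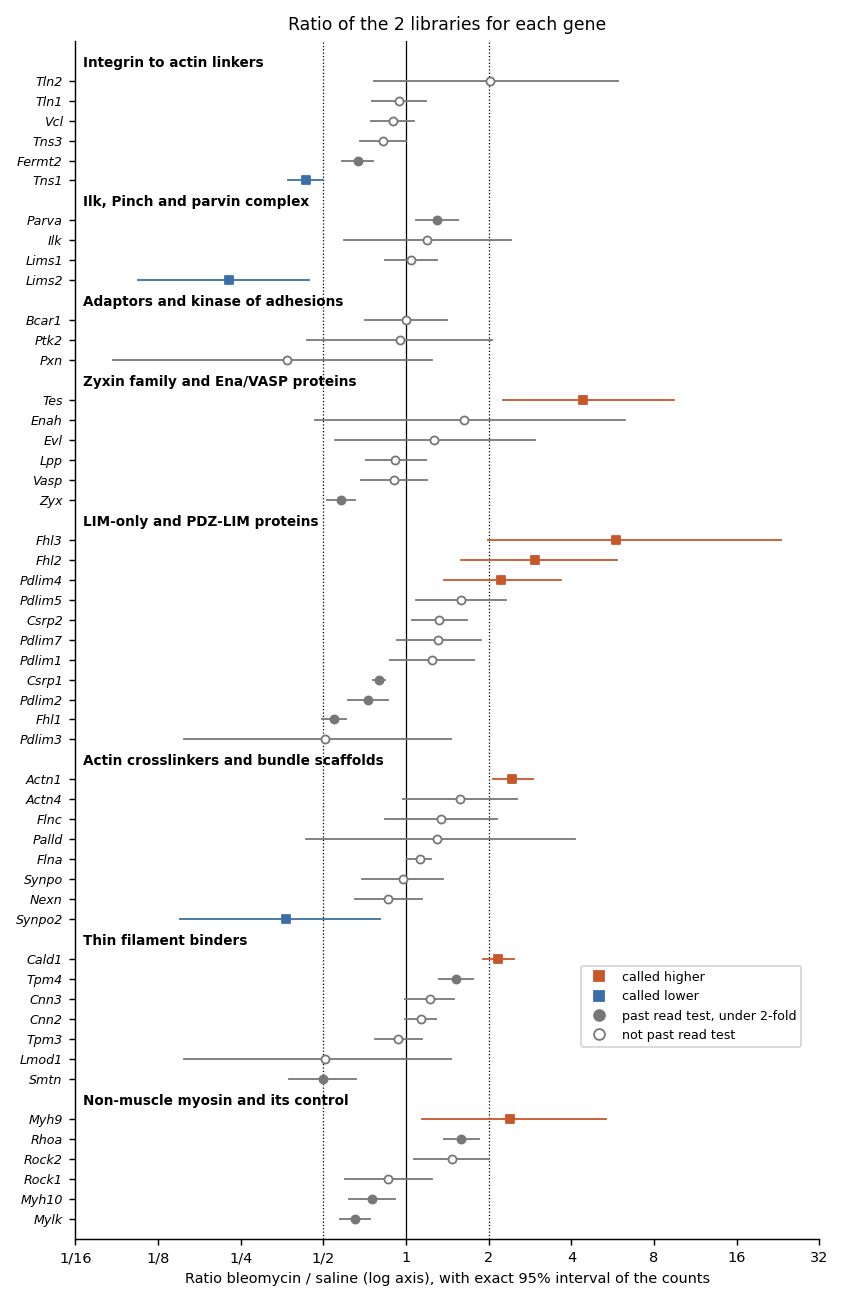
Bleomycin-to-saline ratio of each of the 51 genes on a log axis, with its exact 95% interval. Orange and blue squares are the 7 genes called higher and the 3 called lower, filled grey circles the 11 past the read test under the 2-fold limit, open circles the rest; dotted lines mark 2-fold.

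Ratios were also compared between paralogs of a family. Families were formed by name after the values had been seen, giving 34 genes in 14 families and 32 pairs. For each pair the larger ratio was divided by the smaller, a quantity that does not depend on library scaling, and in 14 of 32 pairs its exact 95% interval lay above 1. These intervals are not adjusted for the number of pairs, pairs of 1 family share genes, and 5 of the 14 are among the 15 pairs of the PDZ-LIM family. The share among other pairs of genes was not computed, so the count is not set against a background. The 2 largest values came from the FHL family. The ratio of Fhl3 was 10.6 times that of Fhl1 (3.61 to 42.5), and that of Fhl2 was 5.42 times (2.87 to 10.9), while Fhl3 over Fhl2 had an interval that held 1 (0.527 to 9.09). Fhl1 made up 98.4% of the family's counts in the saline library (97.6 to 99.1, exact binomial) and 90.6% in the bleomycin library (88.1 to 92.7). These are shares of counted tags and not of transcripts, since tags of different genes may be captured unequally.

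The ratio of Lims1 was 4.58 times that of Lims2 (2.25 to 10.1), and the share of Lims2 in their counts went from 23.2% (17.7 to 29.5) to 6.18% (3.12 to 10.8). Myh9 over Myh10 gave 3.18 (1.47 to 7.31). Myh9 was 4.12% of the counts of that pair in the saline library (2.07 to 7.25) and 12.0% in the bleomycin library (8.02 to 17.1). Tns3 over Tns1 gave 1.91 (1.49 to 2.45). Synpo over Synpo2 gave 2.65 (1.11 to 6.92), Csrp2 over Csrp1 1.66 (1.31 to 2.09) and Rock2 over Rock1 1.70 (1.04 to 2.77). In the PDZ-LIM family, 4 of the other genes stood above Pdlim2, from Pdlim1 at 1.71 (1.16 to 2.53) to Pdlim4 at 3.04 (1.82 to 5.19), and Pdlim4 over Pdlim3 gave 4.31 (1.33 to 15.7). The share of Pdlim2 in the family went from 63.0% to 46.6%. Tpm4 over Tpm3 gave 1.62 (1.27 to 2.07), with the Tpm3 count uncertain as said above. The intervals of the other pairs held 1, so these were not told apart at this depth. Actn1 over Actn4 gave 1.56 (0.929 to 2.58), Flnc over Flna 1.20 (0.741 to 1.95) and Cnn3 over Cnn2 1.07 (0.843 to 1.37).

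**Figure D3:**
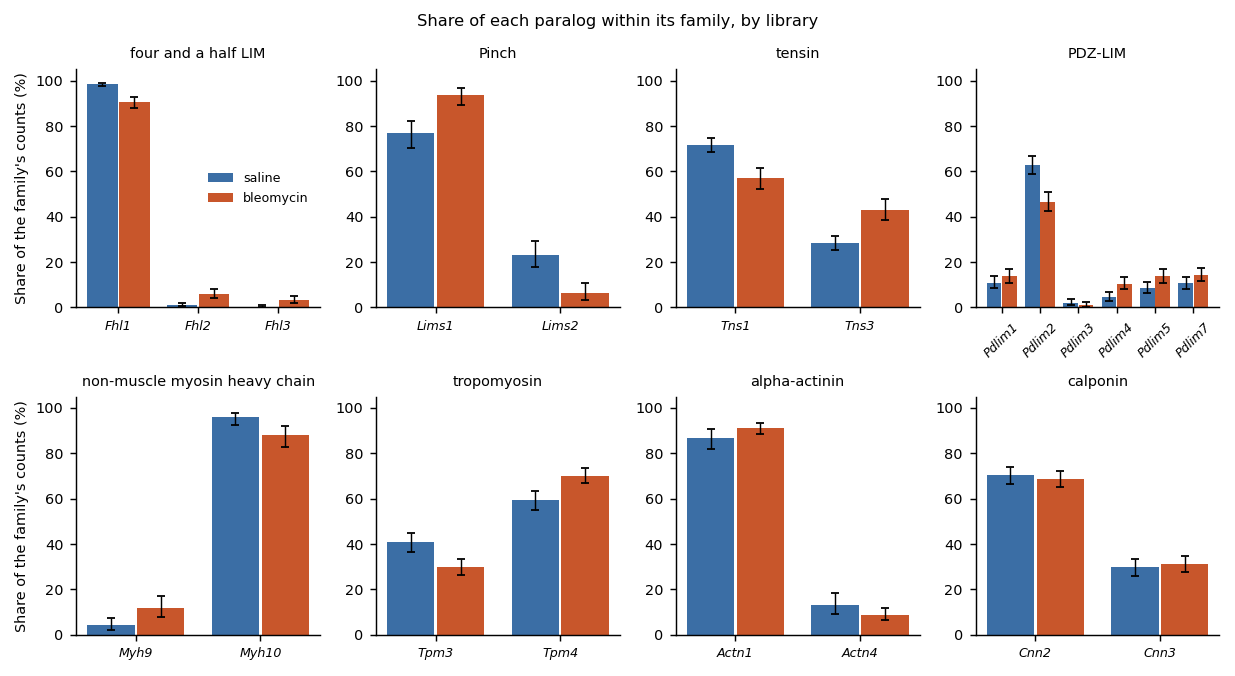
Share of each paralog in the summed counts of its family, in percent, for 8 of the 14 families, in the saline (blue) and bleomycin (orange) library. Bars start at 0 and error bars are exact 95% binomial intervals; the shares of Lims2 and Pdlim2 are smaller and those of Fhl2, Fhl3 and Myh9 larger in the bleomycin library, while those of Cnn2 and Cnn3 are close.

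Many adhesion and contractile genes are known targets of serum response factor (SRF), which binds a DNA element called the CArG box. RefSeq promoters (GRCm38.p6, 250 bases before to 50 after a start site) were at hand for 41 of the 51 genes, as 57 promoters. An unbroken CArG box, whose pattern reads the same on both strands, was found in 6 of these 57 promoters (10.5%) and in 535 of 32851 promoters of all genes (1.63%). The boxes lie in the promoters of 5 genes, which are shown to set a shared element beside unlike ratios. Each line gives the strand of the gene 5′ to 3′, with the box in capitals.
Fhl2, first promoter, chr1:43196823-43196882, minus strand: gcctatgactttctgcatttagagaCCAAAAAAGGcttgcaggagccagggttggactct
Fhl2, second promoter, chr1:43163958-43164017, minus strand: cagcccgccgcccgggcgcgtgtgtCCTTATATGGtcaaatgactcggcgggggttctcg
Cnn2, chr10:79988519-79988578, plus strand: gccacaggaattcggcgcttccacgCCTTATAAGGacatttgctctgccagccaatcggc
Vcl, chr14:20929148-20929205, plus strand: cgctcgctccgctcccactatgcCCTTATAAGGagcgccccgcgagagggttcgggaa
Fermt2, chr14:45530235-45530294, minus strand: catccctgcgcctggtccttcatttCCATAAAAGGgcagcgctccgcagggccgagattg
Fhl1, chrX:56779556-56779615, plus strand: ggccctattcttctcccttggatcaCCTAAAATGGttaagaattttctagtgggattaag
Vcl and Cnn2 carry the same box of 10 bases, the first 227 and the second 56 bases before the start. The ratios of these 5 genes were 2.96 for Fhl2, 1.13 for Cnn2, 0.893 for Vcl, 0.667 for Fermt2 and 0.546 for Fhl1. A match is a description of these letters and shows no binding.

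Other genes of the same pathways, listed apart from the 51, were also called in both directions, as were all tested genes (8.08% higher and 8.52% lower). The lists in this paragraph and the next were not tested against these shares. Of 27 tested further adhesion genes, 2 were higher and 4 lower, with a median log2 ratio of −0.22. Pak1, a kinase downstream of Rac, rose from 3 to 20 counts (ratio 6.74, 2 to 35.4). Fyn, a Src family kinase, fell from 31 to 5 counts (0.163, 0.0495 to 0.423), and Tns2, a further tensin listed under its older name Tenc1, fell from 190 to 71 (0.378, 0.284 to 0.499). Cav1, caveolin 1, with the most counts of them, had 553 and 472 counts. Of 16 tested genes of actins, other tropomyosins, light chains and myosin phosphatase, 1 was called higher and 3 lower (median −0.25). By the read test at any ratio, 4 of the 16 were higher and 7 lower. Acta2 and Tagln, given above with the smooth muscle markers, were among the 4 higher. Tpm1, a tropomyosin of stress fibres, rose from 363 to 829 counts (2.31, 2.04 to 2.62). Ppp1r14a, an inhibitor of myosin phosphatase, fell from 298 to 97 (0.329, 0.259 to 0.415), and Cnn1, the smooth muscle calponin, fell from 17 to 4 (0.238, 0.0583 to 0.730). Tagln2, transgelin 2, with the most counts of them, had 1171 and 1023 counts and was lower by the read test at 0.883 (0.812 to 0.962). Actg1, γ-actin, an abundant transcript in most cells, had 1 and 0 counts, so a low count here need not mean a low level.

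Of 11 tested SRF and YAP coactivators and targets, 1 was called, Ctgf, connective tissue growth factor, which rose from 752 to 1669 counts (2.24, 2.06 to 2.45). Cyr61, a relative of Ctgf and also a known YAP target, went the other way, from 1524 to 755 counts, lower by the read test at 0.501 (0.459 to 0.547) and just inside the 2-fold limit. Tead1, a DNA-binding partner of YAP, had 44 and 75 counts and was higher by that test at 1.72 (1.17 to 2.56). Srf itself had 165 and 95 counts and was lower at 0.582 (0.448 to 0.754). These last 3 were named after their values were seen.

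**Figure D4:**
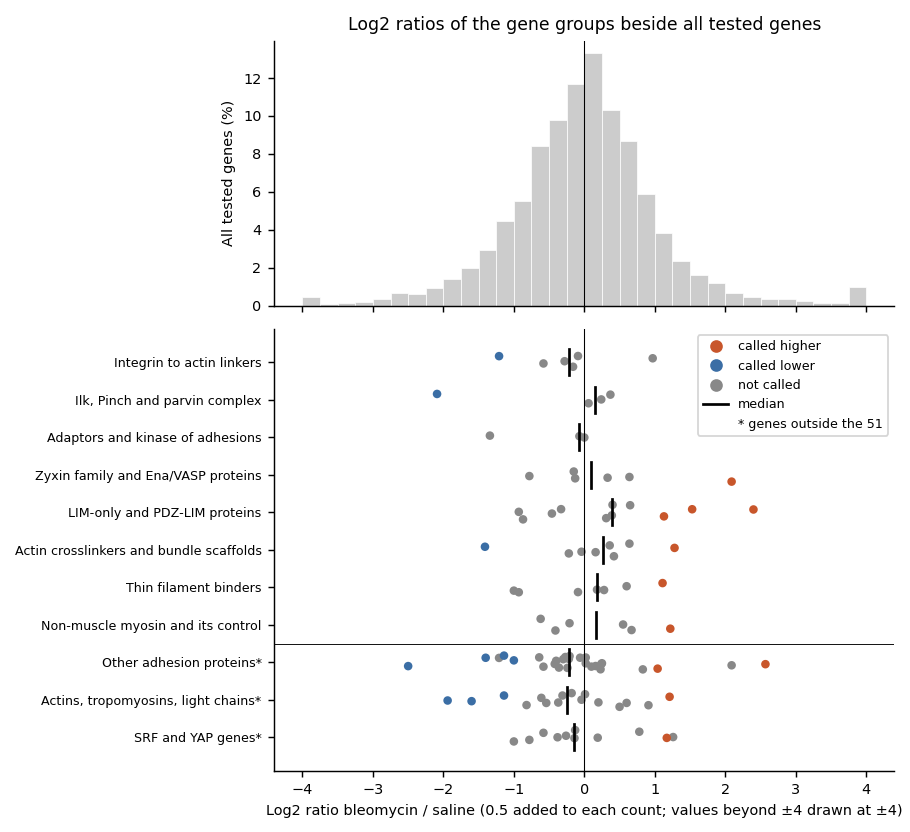
Top, share of all tested genes by log2 ratio of bleomycin to saline; bottom, log2 ratios of the 8 role classes of the 51 genes and, with an asterisk, of 3 lists of other pathway genes. Each point is a gene, orange if called higher and blue if called lower, and black bars are medians, which lie between −0.25 and 0.39.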

How the data were processed

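The authors deposited 1 table of whole-number tag counts per gene for 2 SOLiD SAGE libraries. BWA 0.6.2 and the build mm9 appear in the submitters' processing notes without a stated role. The sources used here do not say how tags were assigned to genes, whether strand was used or whether counts were scaled, so intervals hold only for raw counts. It lists 16040 genes, and 1 blank line was dropped. The 51 genes and all lists were chosen with earlier results of these data known.

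Libraries were scaled with TMM in edgeR 4.0.16 under R 4.3.3 (factors 1.01 for saline and 0.986 for bleomycin). The edgeR quasi-likelihood test needs replicates and could not be fitted. Genes with at least 10 counts over both libraries were tested by an exact binomial test (two-sided) of the bleomycin count given the sum, adjusted by Benjamini-Hochberg. Ratios have exact Clopper-Pearson 95% intervals. The procedure was tested on simulated counts that varied by counting error only, so that check does not cover variation between mice or libraries. Values in full are given for called genes and the genes with most counts of each of 8 role classes; of other lists, up to 3 called genes and the one with most counts are named. A further list of pathway genes is not reported here. Older symbols were matched through RefSeq records of GRCm38, which covered 90.3% of genes. No coordinates of mm9 are given. Alternatives varied scaling, count minimum, prior count, ratio limit and adjustment. Python 3.11.15, scipy 1.17.1, pandas 2.3.3 and matplotlib 3.10.9 were used.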

Additional observations from a re-analysis of the deposited data

How the results depend on the processing

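Against 7 genes called higher and 3 lower, a ratio limit of 3 left 2 higher (Tes and Fhl3) and 1 lower (Lims2), Bonferroni adjustment left 3 higher and 2 lower, and a ratio limit of 1.5 gave 9 higher and 7 lower. The shares of all tested genes were 4.73% higher and 4.75% lower at a limit of 3, 3.07% and 3.55% with Bonferroni adjustment, and 11.8% and 12.4% at a limit of 1.5. Bonferroni adjustment left 13 of 21 genes, out of the 51, past the read test at any ratio, beside 10.1% of all tested genes. The 51 have higher counts, with a median sum of 211 against 52.0 for all tested genes. With a minimum of 50 counts, 39 of the 51 genes were tested and their median log2 ratio was −0.0041, beside −0.02 for all tested genes. Fewer genes pass a stricter limit by its construction, and the cause of the other shifts was not tested. Over the 23 genes that were called or had the most counts of a role class, another scaling or a prior count of 5 kept direction and call in 66 of 69 cases. The 3 exceptions were all Myh9, with log2 ratios of 1.18, 1.20 and 0.97 against 1.22. No direction turned among these 23. Smtn, outside the 23, was not called in the main setting but was called lower with either other scaling. No paired analysis was possible because each group is 1 library. With 1 library per group no library could be left out, and genes under about 50 counts have wide intervals.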
